A study of Mus musculus with 12 samples.

Results

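The cyclin, CDK, E2F and replication licensing genes were taken as every gene in the deposited ATAC-seq table whose symbol matched a cyclin A to E, a numbered CDK, an E2F, an MCM, an ORC or a BUB gene. Within the table the symbols chose them and no measured value did, though the families were chosen with earlier results of these data known. There were 49 such genes among 12338 named genes with a region in the table, and they were listed with 67 of its 81995 regions. For each gene the region whose centre lay nearest the transcription start site was used as its start site region, and the other 18 regions are described separately. Of 56 genes of these families looked for, 7 had no listed region: Ccna1, Ccnb3, Cdk3, Cdk5, Mcm7, Orc3 and Orc4. One of the 49, Ccnb1ip1, matched by its symbol but encodes a RING finger protein and not a cyclin.

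Cyclins bind and switch on cyclin-dependent kinases, and D cyclins with CDK4 and CDK6 release E2F factors from the RB proteins at the start of the cycle. E2F factors then act on genes for DNA synthesis, among them cyclin E, the origin recognition complex (ORC) and the MCM helicase, which ORC loads onto DNA to license replication origins. Several numbered CDKs have no main role in the cycle and act in transcription or signalling instead, and BUB proteins belong to the checkpoint that holds mitosis until chromosomes are attached.

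The cells were NIH/3T3, an immortal mouse fibroblast line, in 4 groups of 3 biological replicates. WT cells were not edited. The PTC1 line carried c.280_281insT as well as c.[280A>G; 280_281insT] in Actg1, a cytoplasmic actin gene, with a stop codon in exon 3. The PTC2 line carried an insertion, Actg1-202:r.1096_1097insn[4036], with a stop codon in exon 5, and the LD line lacked the whole Actg1 locus. PTC1 and PTC2 are called the stop lines below. The series was made to ask whether decay of the mutant RNA changes other genes, and the deleted locus served as the allele without such RNA. The labels name no separate clones, so each allele was taken as 1 line and p-values measured the spread between samples of it. Accessibility at a promoter is not a measure of the gene's RNA. In bulk samples, fewer cells with an open region and less cutting per cell cannot be told apart.

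Each sample held 25000 cells. The values are read counts that the authors scaled by 1 factor per library and rounded, called normalized read counts here. Their totals over all regions were 31.29 to 34.8 M (mega) per library, and the reads estimated behind them ran from 25.03 to 44.98 M. By group these estimates were 30.35 to 32.91 M in WT and 30.32 to 35.14 M in PTC1. In PTC2 they were 35.81 to 44.98 M, above every other library, and in LD 25.03 to 33.33 M. Whether this difference in depth had a part in the calls was not tested. Log values of libraries correlated at r = 0.982 to 0.987 within groups and 0.817 to 0.933 between groups, over regions of 1 table. The start sites of 13 of 14 fibroblast markers had a region, with a summed count of 17808 to 21679 per library. Sums of other markers moved with the groups: epithelium 985 to 998 in PTC2 against 198 to 412 elsewhere, neural 2185 to 2358 in PTC1 against 818 to 1156, and muscle 138 to 165 in PTC1 against 53 to 123. These 3 sums rested on few genes, and other genes of each list went the other way. From WT to PTC2 the mean went from 194 to 929.7 at Krt5 and from 64.33 to 33.67 at Krt14. From WT to PTC1 it went from 23 to 1025 at Sox2, 32.67 to 464 at Syt1 and 824 to 511 at Tubb3. In the same lines it went from 2.333 to 97 at Myf6, 5099 bp from its start site, and from 31.33 to 23 at Myod1. Endothelium markers summed to 1247 to 1290 in PTC2, 1006 to 1114 in PTC1, 900 to 930 in WT and 658 to 796 in LD, and blood markers to 571 to 783 overall. The part of these shifts in the results below was not tested. Actg1 itself was not analysed here, so the labels were not checked against the edited gene.

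Promoter sequences are shown for the members the results turn on most: the 3 MCM helicase genes with a match to an E2F word, and E2f6 and Cdk18, which had large changes without one. The sequences are from RefSeq (GRCm38.p6, the assembly of mm10), run 5′ to 3′ on the gene's strand and hold 250 bases before and 50 after the start site. Capitals mark E2F words (TTTGGCGC, TTTCCCGC, TTTGCCGC or TTTCGCGC), the CCAAT box and the CHR word TTTGAA, on either strand.
Mcm3 (chr1:20820263-20820562, minus strand): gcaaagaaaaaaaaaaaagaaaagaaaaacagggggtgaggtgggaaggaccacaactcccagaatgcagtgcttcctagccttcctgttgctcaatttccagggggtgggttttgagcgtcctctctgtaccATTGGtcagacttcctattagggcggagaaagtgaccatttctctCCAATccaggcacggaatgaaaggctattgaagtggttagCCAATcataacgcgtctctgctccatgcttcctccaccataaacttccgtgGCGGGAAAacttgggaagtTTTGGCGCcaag
Mcm5 (chr8:75109259-75109558, plus strand): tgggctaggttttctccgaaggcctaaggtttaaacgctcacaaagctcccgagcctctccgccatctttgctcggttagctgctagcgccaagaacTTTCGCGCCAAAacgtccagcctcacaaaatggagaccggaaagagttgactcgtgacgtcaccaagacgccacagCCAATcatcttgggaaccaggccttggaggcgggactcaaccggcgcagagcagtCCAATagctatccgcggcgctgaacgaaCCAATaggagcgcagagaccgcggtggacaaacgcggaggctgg
Mcm6 (chr1:128359656-128359955, minus strand): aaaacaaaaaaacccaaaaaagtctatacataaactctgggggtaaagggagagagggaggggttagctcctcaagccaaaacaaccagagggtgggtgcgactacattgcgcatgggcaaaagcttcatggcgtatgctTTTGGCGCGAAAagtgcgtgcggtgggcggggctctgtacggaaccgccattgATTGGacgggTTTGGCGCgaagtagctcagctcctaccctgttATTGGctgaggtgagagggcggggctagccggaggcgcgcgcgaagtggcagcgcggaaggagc
E2f6 (chr12:16810715-16811014, plus strand): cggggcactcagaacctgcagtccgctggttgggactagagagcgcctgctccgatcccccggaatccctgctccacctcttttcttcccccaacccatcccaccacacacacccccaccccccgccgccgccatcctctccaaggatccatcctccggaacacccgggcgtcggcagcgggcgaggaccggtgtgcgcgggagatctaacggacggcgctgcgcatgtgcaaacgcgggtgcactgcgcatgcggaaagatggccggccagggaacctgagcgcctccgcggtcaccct
Cdk18 (chr1:132139636-132139935, minus strand): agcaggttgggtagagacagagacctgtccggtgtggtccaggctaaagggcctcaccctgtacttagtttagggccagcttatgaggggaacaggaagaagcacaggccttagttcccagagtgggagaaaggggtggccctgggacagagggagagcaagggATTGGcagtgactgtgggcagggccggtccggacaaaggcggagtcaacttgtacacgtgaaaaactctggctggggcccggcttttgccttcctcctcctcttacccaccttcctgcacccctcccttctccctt
In Mcm5 the capitals at the E2F words are 1 overlapping pair on opposite strands, and Mcm6 has such a pair and a separate word nearer the start. Mcm3 has its E2F words just after the start site. E2f6 holds none of the words, and Cdk18 holds 1 CCAAT box on the opposite strand.

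Promoter sequences were found for 40 of the 49 genes, and 35 of these lay wholly inside the start site region. An E2F word was present in 10 of the 40 (25%), against 2.265% of all 32851 promoters in the RefSeq table and 4.504% of the 10857 promoters that lay inside a region of the data. The 10 genes were Mcm3, Mcm5, Mcm6, Mcm8, Orc1, Cdk1, Cdk2, E2f2, E2f3 and E2f7. CCAAT was in 25 (62.5%, against 37.41% of all promoters and 38.59% of those inside a region). The CHR word was in 8 (20.0%, against 17.89% of all promoters and 10.51% of those inside a region). A match is a run of letters and not a measured binding site.

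The start site regions of these genes were broad and well read. Their median width was 1220 bp and their median normalized read count over the 12 libraries 1688, against 1085 bp and 1001 for all start site regions. Per kilobase of region, the WT count was highest at Mcm4, a subunit of the replicative helicase, with 3522, followed by Mcm9 with 2797 and Ccnb1ip1 with 2703. It was lowest at Cdk18 with 214.5, Cdk15 with 216.9, E2f6 with 267.9 and Cdk19 with 295.8. All 49 had a mean count well over the minimum of 5 used for testing, the lowest being 151.9, so all 49 were tested.

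Values were compared as log2(count + 1) with limma, with p-values adjusted by the Benjamini-Hochberg method over all 81985 regions tested, and a region was called at an adjusted p under 0.05. In PTC1 against WT, 16 of the 49 start sites were higher and 14 lower, or 32.65% and 28.57%, where 33.3% and 28.5% of all 12337 start site regions were called. In PTC2 against WT, 17 were higher and 6 lower (34.69% and 12.24%), beside a background of 37.4% and 16.3%. In LD against WT, 12 were higher and 17 lower (24.49% and 34.69%), beside 16.9% and 29.5%. In both stop lines these shares lay near or below those of all start sites, and in LD both lay above. Comparisons with WT share the 3 WT libraries.

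The mean of PTC1 and PTC2 against LD gave 29 higher and 12 lower, or 59.18% and 24.49%, beside 45.2% and 21.7% of all start site regions. PTC1 against PTC2 gave 9 higher and 13 lower (18.37% and 26.53%), beside 21.1% and 33.2%. The changes were small. The median size of the log2 change, regardless of sign, was 0.17 in PTC1, 0.15 in PTC2 and 0.17 in LD, against 0.25, 0.21 and 0.19 over all start sites. Calls with a log2 change of at least 0.5 in size made up 14.29%, 12.24% and 10.2% of the members and 22.61%, 17.64% and 17.27% of all start sites.

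**Figure D1:**
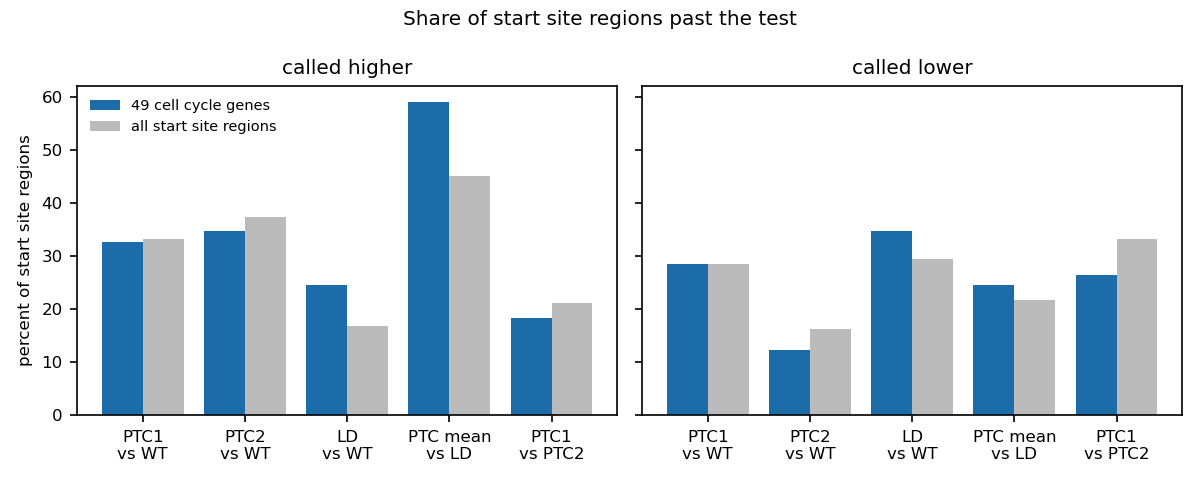
Percent of start site regions called higher (left) and lower (right) in the 5 comparisons; blue bars are the 49 cell cycle genes and grey bars all 12337 start site regions. The paired bars differ most for calls higher in the mean of PTC1 and PTC2 against LD, 59.18% against 45.2%.

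The direction of small changes depended on the scaling of the libraries. With libraries scaled to the same median, 9 members were higher and 23 lower in LD, and 27 higher and 4 lower in PTC2. Of all 12337 start site regions, 1443 were then higher and 4643 lower in LD, and 6219 higher and 1278 lower in PTC2. With loess normalization LD gave 20 higher and 6 lower, and with quantile normalization 18 and 7. The counts over all start sites were 3677 and 2301, and 3562 and 2404. The balance in LD, of members and of all start sites, thus leaned lower under one kind of scaling and higher under the other. PTC1 gave 23 and 11 with loess, 22 and 13 with quantile normalization, and 16 and 8 when each chromosome was centred on its median. Over all start sites these were 4950 and 3220, 4639 and 3425, and 3247 and 2778. PTC2 gave 21 and 3 with chromosome centring, 23 and 6 with local centring, 17 and 7 with loess and 17 and 6 with quantile normalization. Beside them stood 4093 and 1523, 3793 and 1799, 4440 and 2473, and 4433 and 2337 of all start sites. In PTC1 the balance was 15 and 14 with the same median and 10 and 11 with local centring, beside 3852 and 3401, and 2884 and 2733. The mean of both stop lines against LD gave 17 and 15 with loess and 20 and 14 with quantile normalization. All start sites gave 4375 and 3798, and 4364 and 3842. PTC1 against PTC2 gave 4 and 22 with the same median, 20 and 12 with loess, 16 and 12 with quantile normalization, and 6 and 18 with local centring. For all start sites the counts were 1735 and 5334, 3903 and 3541, 3537 and 3773, and 2123 and 3810. Across these settings the median of all start site regions in LD moved from -0.12 with the same median to 0.06 with loess, with -0.05 as deposited. In the mean of the stop lines against LD it moved from 0.24 to 0.03, with 0.12 as deposited.

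Calls that kept their direction under same-median scaling, loess, quantile normalization, chromosome centring and local centring are called stable below. Local centring subtracts in each library the median deviation of the 50 nearest regions on each side. There were 11 stable calls among the members in PTC1, 15 in PTC2, 10 in LD, 20 in the mean of PTC1 and PTC2 against LD and 11 in PTC1 against PTC2. As shares of the 49 these were 22.4%, 30.6%, 20.4%, 40.8% and 22.4%. The same count gave 26.6%, 25.4%, 19.3%, 33.3% and 27.4% of all start sites. Without LD replicate 2 or without LD replicate 3, the count of members lower in LD went from 17 to 11. Over all start sites the same count went from 3635 to 3032 and to 3203.

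Cdk18 and Cdk10 were called higher in all 3 mutant lines (4.082% of the members, against 4.183% of all start sites). None was lower in all 3 (0%, against 3.875%). No call in any line was made at Bub1b, Cdk2, Cdk4, Cdk6, E2f8, Mcm10 and Orc1, 14.29% of the members against 12.79% of all start sites. Cdk2, Cdk4 and Cdk6 encode the kinases that carry cells into S phase, and their log2 changes against WT lay between -0.07 and 0.13 in every line. Calls of opposite direction in different lines were made at 16 members (32.65%, against 23.41%).

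**Figure D2:**
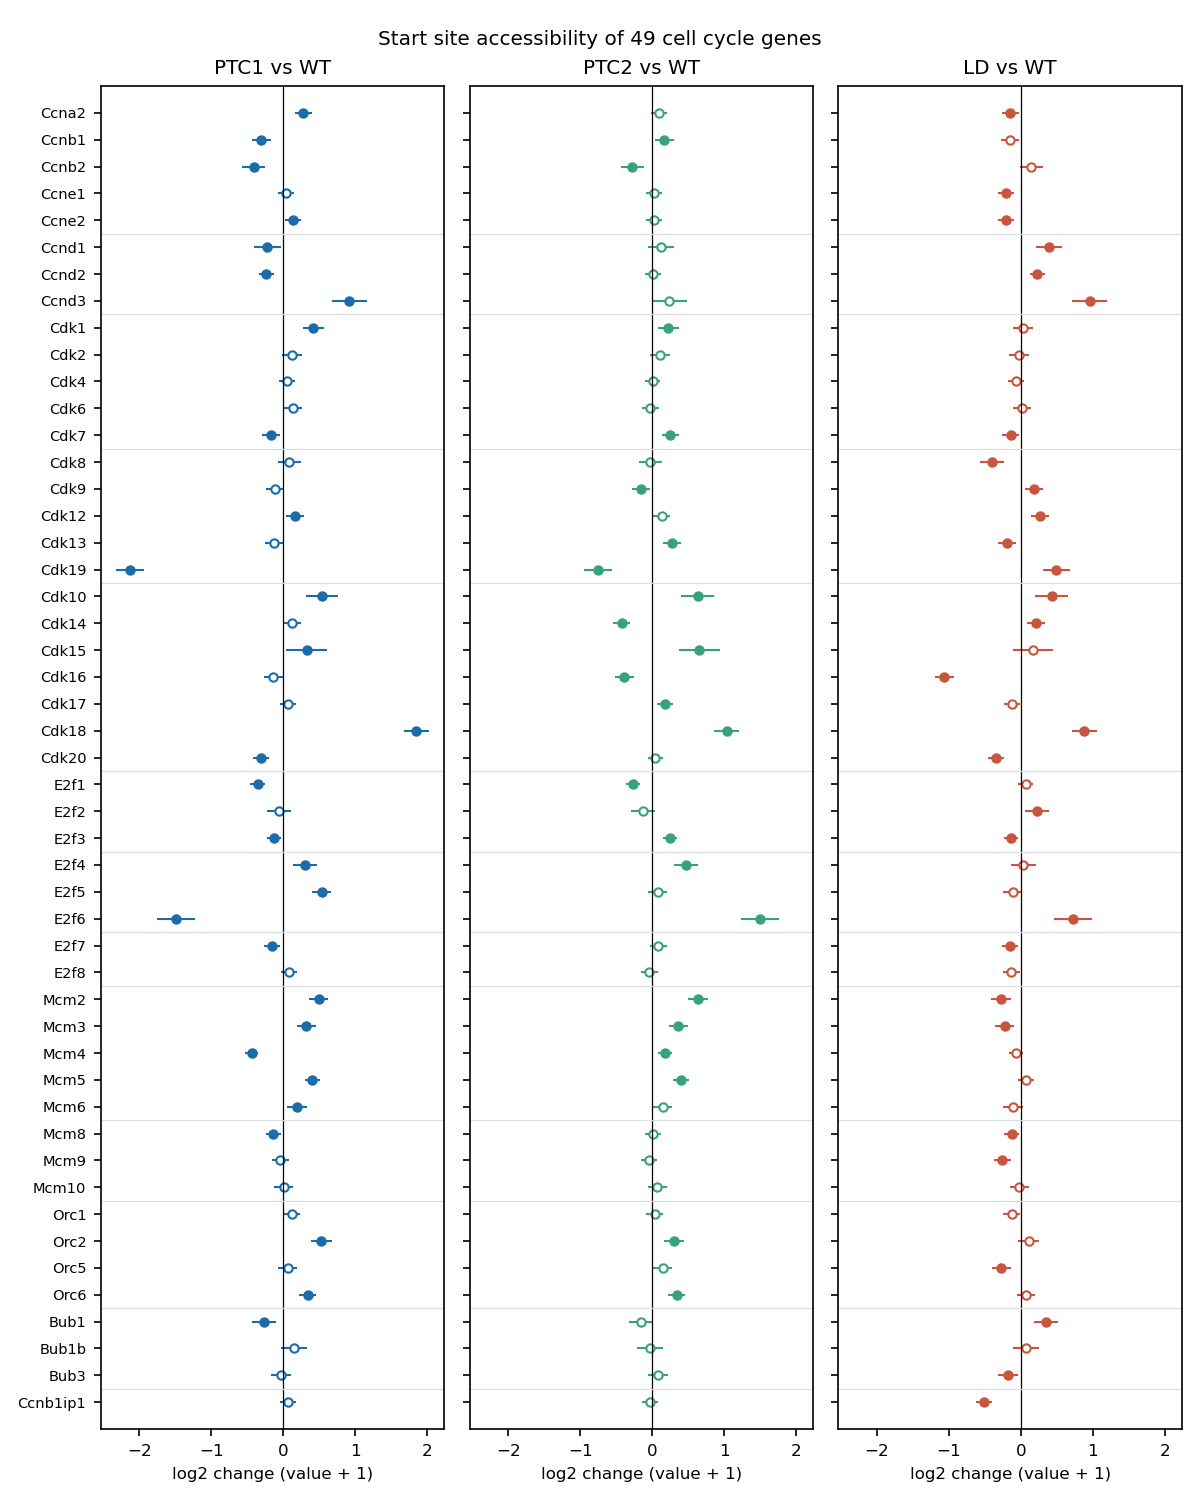
Log2 change of the start site region of each of the 49 genes against WT in PTC1, PTC2 and LD; points are estimates over 3 libraries per group, lines 95% intervals of the limma fit, filled points passed the test, and grey lines divide the role groups. Most points lie close to 0, and Cdk19, E2f6 and Cdk18 stand farthest out.

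E2f6 encodes an E2F that represses its targets together with polycomb proteins and lacks the domains by which other E2Fs activate genes or bind RB. Its start site region (chr12:16810718-16811625) had counts of 238, 236 and 255 in WT, 70, 76 and 117 in PTC1, 676, 720 and 676 in PTC2 and 409, 396 and 401 in LD. The 4 groups did not overlap, with PTC1 lowest and PTC2 highest. Its log2 change was -1.497 ± 0.13 (SE, in this and later values) in PTC1 (adjusted p = 3.66e-11), 1.503 ± 0.13 in PTC2 (3.74e-11) and 0.72 ± 0.13 in LD (3.17e-05). PTC1 against PTC2 differed by -3.00 ± 0.13 (adjusted p = 3.82e-18), the widest difference between the stop lines among the 49 members. All these calls were stable. The promoter printed above, without an E2F word, overlaps the upstream end of the region. A further E2f6 region, 2910 bp from the start site, was higher in PTC2 (0.47, adjusted p = 0.000387) and did not pass in PTC1 (0.15) or LD (0.13).

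E2f5 encodes an E2F that pairs with RB relatives to keep genes off in resting cells. Its region (chr3:14578437-14579953) had 1663, 1889 and 1710 counts in WT, 2347, 2554 and 2731 in PTC1, 1995, 1783 and 1773 in PTC2 and 1700, 1504 and 1656 in LD. PTC1 lay above every other library, while the other groups overlapped. The log2 change in PTC1 was 0.54 ± 0.07 (adjusted p = 3.76e-08). The 100 regions around it had a median change of 0.38, and after local centring the change was 0.15 and did not pass. E2f4, a repressor of the same kind, was higher in PTC1 by 0.30 and in PTC2 by 0.47 and did not pass in LD (0.03). After local centring neither stop line passed, with changes of 0.05 (adjusted p = 0.609) and 0.11 (0.237).

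Among the activating E2Fs, which switch on S phase genes, E2f1 was lower in PTC1 (-0.36) and PTC2 (-0.27), and its neighbourhood medians were -0.22 and -0.19. The PTC1 call was stable and the PTC2 call was not. E2f3 was lower in PTC1 (-0.13) and in LD (-0.14) and higher in PTC2 (0.25), of which the PTC2 call was stable. E2f2 was higher in LD (0.22), a call that did not hold under every scaling. The atypical E2Fs, which repress E2F targets late in the cycle, had 1 stable call against WT, E2f7 lower in PTC1 (-0.15).

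Cdk18 encodes a kinase of the PCTAIRE family, outside the core cycle. Its region (chr1:132139182-132140402) had 246, 253 and 286 counts in WT, 893, 954 and 979 in PTC1, 562, 512 and 536 in PTC2 and 479, 456 and 512 in LD. Every mutant library lay above every WT library, and PTC1 lay above the rest, while PTC2 and LD met at 512. On the log2 scale it changed by 1.85 ± 0.09 in PTC1 (adjusted p = 3.03e-17), 1.04 ± 0.09 in PTC2 (1.56e-11) and 0.88 ± 0.09 in LD (9.47e-10), and all 3 calls were stable. The neighbouring region on the side of lower coordinates, 5207 bp away and listed with no gene, had a mean of 28.7 in WT, and of 336.7, 66.0 and 50.0 in PTC1, PTC2 and LD. A further region listed with Cdk18, 4779 bp from the start site, was higher in PTC1 (1.20) and PTC2 (0.53) and did not pass in LD (-0.35).

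Cdk19 encodes a kinase of the Mediator complex, a paralog of Cdk8 that acts in transcription. Its region (chr10:40338152-40339849) had 493, 518 and 495 counts in WT, 113, 119 and 110 in PTC1, 301, 280 and 311 in PTC2 and 720, 684 and 717 in LD. The 4 groups were fully separate, in the order PTC1, PTC2, WT, LD. Against WT, PTC1 differed by a log2 change of -2.13 ± 0.09 (adjusted p = 8.06e-18), PTC2 by -0.75 ± 0.09 (4.88e-08) and LD by 0.49 ± 0.09 (6.65e-05), all stable. The neighbourhood medians were 0.14, -0.04 and 0.04. Cdk8 itself was lower in LD (-0.40, adjusted p = 0.000114) and did not pass in PTC1 (0.09) or PTC2 (-0.02), and its LD neighbourhood median was -0.23. After local centring the LD change of Cdk8 did not pass (-0.18, adjusted p = 0.0795).

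Cdk10 encodes a kinase that pairs with cyclin M. Its region (chr8:123224357-123225291) had 303, 310 and 372 counts in WT, 444, 420 and 576 in PTC1, 551, 496 and 477 in PTC2 and 467, 468 and 388 in LD. All mutant libraries lay above the WT ones, and the mutant groups overlapped each other. Log2 changes were 0.54 ± 0.11 in PTC1 (adjusted p = 0.000107), 0.63 ± 0.11 in PTC2 (1.43e-05) and 0.43 ± 0.11 in LD (0.00211). The PTC1 change was 0.21 after local centring and did not pass, while the PTC2 and LD calls were stable.

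Cdk15, a little-studied kinase related to Cdk14, had low counts at its region (chr1:59256512-59257076), with 121, 116 and 130 in WT, 143, 149 and 169 in PTC1, 175, 195 and 210 in PTC2 and 134, 121 and 160 in LD. PTC2 lay above all others and LD overlapped WT. The log2 change was 0.65 ± 0.14 in PTC2 (adjusted p = 0.000181), a stable call, and 0.32 ± 0.14 in PTC1 (0.0429). Leaving out single libraries ended the PTC1 call in 4 of 12 cases, with changes of 0.25 to 0.37 and adjusted p up to 0.16. Cdk14 was lower in PTC2 (-0.42) and higher in LD (0.21), of which the PTC2 call was stable.

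Cdk16, another PCTAIRE kinase, lies on chromosome X (chrX:20687315-20689023). It had 3202, 2732 and 2662 counts in WT, 2601, 2432 and 2759 in PTC1, 2352, 2105 and 2104 in PTC2 and 1393, 1399 and 1295 in LD. All LD libraries lay below all others, PTC2 lay below WT and PTC1 overlapped WT. Log2 changes were -1.07 ± 0.06 in LD (adjusted p = 5.12e-14) and -0.39 ± 0.06 in PTC2 (8.32e-06). The 100 regions around it had medians of -0.61 in LD and -0.37 in PTC2, and the changes after local centring were -0.46, still called, and -0.01. Both neighbouring regions, listed with Uba1 and Usp11, differed by -0.88 and -1.07 in LD. Whether the copy number of chromosome X differed between lines was not tested.

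The kinases of the core cycle changed little. Cdk1, the mitotic kinase, was higher in PTC1 (0.42) and PTC2 (0.22), both stable, and did not pass in LD (0.03). Cdk7, which activates other CDKs and is part of the transcription factor TFIIH, was lower in PTC1 (-0.17) and LD (-0.14) and higher in PTC2 (0.25), of which the PTC2 call was stable. Of the kinases of transcription elongation, Cdk9 was lower in PTC2 (-0.15) and higher in LD (0.18), Cdk12 higher in PTC1 (0.16) and LD (0.27), and Cdk13 higher in PTC2 (0.27) and lower in LD (-0.19). Only the PTC2 call of Cdk13 was stable among these. Cdk20 was lower in PTC1 (-0.31) and LD (-0.35), both stable.

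**Figure D3:**
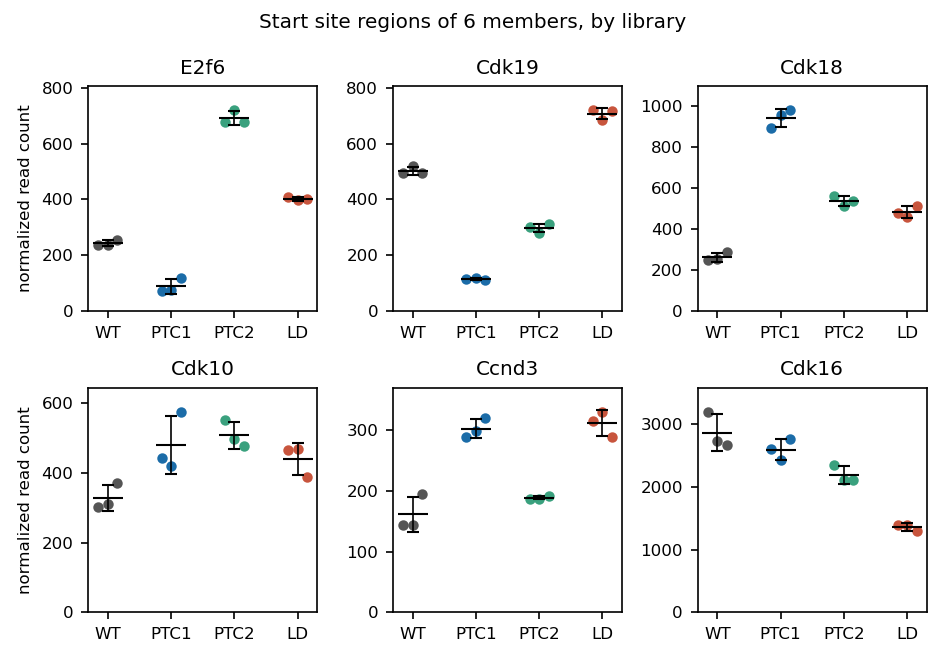
Normalized read counts of the start site regions of E2f6, Cdk19, Cdk18, Cdk10, Ccnd3 and Cdk16 in every library; points are libraries, the dash and bar are the mean and SD of 3, and each axis starts at 0. At Cdk19 the groups are fully separate, from 110 to 119 in PTC1 up to 684 to 720 in LD.

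The start site regions of all 3 D cyclin genes, which encode partners of CDK4 and CDK6, were higher in LD than in WT. This held under all 5 other scalings and centrings. Ccnd3 had a narrow region at its listed start site (chr17:47504993-47505263, 270 bp) with 144, 144 and 195 counts in WT, 288, 298 and 319 in PTC1, 187, 187 and 191 in PTC2 and 314, 330 and 288 in LD. PTC1 and LD lay above WT and PTC2, which overlapped. Its log2 change was 0.92 ± 0.12 in PTC1 (adjusted p = 1.28e-07) and 0.96 ± 0.12 in LD (1.23e-07), and 0.24 ± 0.12 in PTC2 did not pass (0.0867). The stronger region listed with Ccnd3, 3146 bp from that start site, had mean counts of 427.3, 485.3, 488.3 and 421 in WT, PTC1, PTC2 and LD, and with it the LD change was -0.02 and did not pass.

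Ccnd1 (chr7:144939599-144940462) had 473, 519 and 439 counts in WT, 402, 386 and 437 in PTC1, 471, 514 and 577 in PTC2 and 626, 648 and 602 in LD. LD lay above every other library and PTC1 below WT. Its log2 change was 0.39 ± 0.09 in LD (adjusted p = 0.000646) and -0.22 ± 0.09 in PTC1 (0.0333), and only the LD call was stable. Ccnd2 was higher in LD (0.23) and lower in PTC1 (-0.24), both stable. In the mean of PTC1 and PTC2 against LD, the start site regions of all 3 D cyclins were lower, with 2 of 3 still called after local centring. At the stronger Ccnd3 region the direction turned, with a change of 0.21 (adjusted p = 0.0176). It also turned at the other Ccnd2 region (0.39, adjusted p = 0.000803), where LD against WT did not pass (-0.14). The other Ccnd1 regions had no call in that comparison (0.07, 0.0028 and 0.10). They were higher in LD against WT (0.35, 0.21 and 0.22), and 1 of them was higher in PTC1 (0.28). In PTC2 against WT their changes were 0.64, 0.15 and 0.47 in the same order, and all but the 0.15 were called higher.

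The S phase and mitotic cyclins did not move as a group. Ccne1 and Ccne2, the E cyclins that drive DNA synthesis, were lower in LD with log2 changes of -0.20 and -0.21, and Ccna2 with -0.15, but with loess or quantile normalization none of the 5 genes was lower in LD. Ccna2, the S phase and G2 cyclin, was higher in PTC1 (0.28), as was Ccne2 (0.13). Ccnb1 and Ccnb2, the mitotic cyclins, were lower in PTC1, at -0.31 and -0.41. In PTC2 Ccnb1 was higher (0.17) and Ccnb2 lower (-0.28). None of these 9 calls against WT was stable. PTC1 lay below PTC2 at Ccnb1 (-0.48), a stable call.

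The MCM helicase opens DNA ahead of the replication fork, and 5 of its 6 subunit genes had a start site region. Mcm2, Mcm3, Mcm5 and Mcm6 were higher than WT in PTC1, of which Mcm5 was still called after local centring. In PTC2, Mcm2, Mcm3, Mcm4 and Mcm5 were higher as deposited, 3 genes were called with loess, and 4 after local centring, with Mcm6 in place of Mcm4. Mcm4 was lower in PTC1 (-0.44), where the 100 regions around it had a median of -0.47. In LD none was higher as deposited and Mcm2 and Mcm3 were lower, but the median of the 5 genes turned from -0.11 to 0.03 with loess and 0.02 with quantile normalization.

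Mcm2 (chr6:88898358-88899075) had 879, 827 and 855 counts in WT, 1234, 1151 and 1213 in PTC1, 1232, 1398 and 1362 in PTC2 and 722, 688 and 702 in LD. Both stop lines lay above WT and LD lay below it. The log2 change was 0.49 ± 0.07 in PTC1 (adjusted p = 2.55e-07), 0.64 ± 0.07 in PTC2 (2.09e-09) and -0.28 ± 0.07 in LD (0.00104). Its neighbourhood had moved as much, with medians of 0.54, 0.46 and -0.42. After local centring the change was -0.05 in PTC1 and 0.14 in LD, which did not pass, and 0.18 in PTC2, which did. The regions next to it, listed with Podxl2 and Tpra1, differed from WT by 0.85 and 0.32 in PTC1.

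Mcm5 (chr8:75108508-75110165), whose promoter holds the overlapping E2F words printed above, had 1956, 1839 and 1834 counts in WT, 2538, 2405 and 2504 in PTC1, 2613, 2345 and 2470 in PTC2 and 1976, 1985 and 1939 in LD. Both stop lines lay above WT and LD, which overlapped. The log2 change was 0.40 ± 0.05 in PTC1 (adjusted p = 1.34e-07) and 0.40 ± 0.05 in PTC2 (1.85e-07), with neighbourhood medians of 0.13 and 0.12, and both calls were stable. Mcm3 (chr1:20819716-20820721) had 1353, 1184 and 1177 counts in WT, 1566, 1445 and 1616 in PTC1, 1582, 1606 and 1587 in PTC2 and 1057, 1064 and 1049 in LD, with no overlap between either stop line and WT. The log2 change was 0.32 in PTC1, 0.37 in PTC2 and -0.23 in LD, of which the PTC2 call was stable. In the mean of PTC1 and PTC2 against LD, Mcm3 (0.57), Mcm5 (0.33) and Mcm6 (0.28) were higher, all stable.

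Mcm7, the sixth subunit, shares its promoter region with Ap4m1, under which the table lists it. That region had mean counts of 3577, 3399, 3037 and 3099 in WT, PTC1, PTC2 and LD. Mcm8 and Mcm9, which act in recombination, and Mcm10, which helps start the helicase, had no higher call against WT. Mcm8 was lower in PTC1 (-0.14) and LD (-0.13), and Mcm9 in LD (-0.26). After local centring the PTC1 call of Mcm8 turned to higher (0.39, adjusted p = 2.85e-06, with a neighbourhood median of -0.53), and Mcm9 in LD no longer passed (-0.09, adjusted p = 0.18). All 3 were then higher in PTC2, and the neighbourhood of Mcm8 had a median of -0.75 in that line.

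ORC marks replication origins, and 4 of its 6 subunit genes had a listed start site region. Orc2 (chr1:58504384-58505392) had 1029, 1009 and 1129 counts in WT, 1384, 1677 and 1519 in PTC1, 1290, 1278 and 1341 in PTC2 and 1058, 1168 and 1180 in LD. Both stop lines lay above WT and above LD, and LD overlapped WT. Orc2 had a log2 change of 0.53 ± 0.07 in PTC1 (adjusted p = 1.48e-07) and 0.30 ± 0.07 in PTC2 (0.000439), both stable. Orc6 was higher in both stop lines (0.34 in each), with neighbourhood medians of 0.32 and 0.37, and after local centring neither passed. Orc5 was lower in LD (-0.27), and after local centring it did not pass (-0.14, adjusted p = 0.103). All 4 ORC genes were higher in the mean of PTC1 and PTC2 against LD (0.21 to 0.38), and 3 of them with loess, quantile normalization or local centring. The regions over the Orc3 and Orc4 promoters are listed with Rars2 and Mbd5, with WT means of 1074 and 2208.

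**Figure D4:**
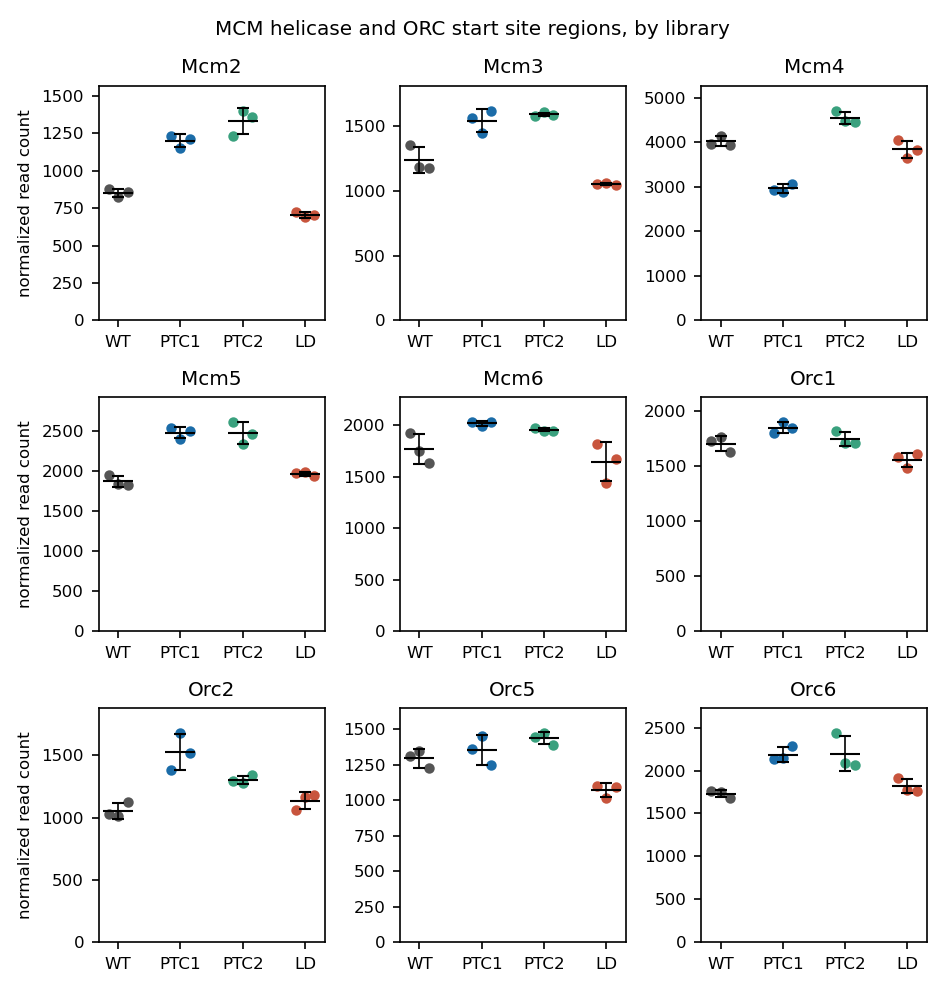
Normalized read counts of the start site regions of 5 MCM helicase genes and 4 ORC genes in every library; points are libraries, the dash and bar are the mean and SD of 3, and each axis starts at 0. At Mcm2, Mcm3, Mcm5, Mcm6, Orc2 and Orc6 all PTC1 and PTC2 libraries lie above all WT libraries, and at Mcm4 PTC1 is lowest. How many of all start sites are separate in this way was not counted.

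Bub1, a checkpoint kinase, was lower in PTC1 (-0.27) and higher in LD (0.35). Bub3, a partner protein in the same checkpoint, was lower in LD (-0.18). None of these 3 calls was stable. Ccnb1ip1 had 2753, 2669 and 2451 counts in WT, 2821, 2754 and 2669 in PTC1, 2563, 2613 and 2518 in PTC2 and 1839, 1775 and 1902 in LD. LD lay below all other libraries, which overlapped. Its log2 change in LD was -0.51 ± 0.05 (adjusted p = 2.83e-09), a stable call, with a neighbourhood median of -0.09.

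The level of the surrounding regions moved with that of many members. Across the 49 genes, which share the 12 libraries and in part their neighbourhoods, the member's change and the median change of the 100 nearest regions had Spearman rho values of 0.53, 0.58 and 0.62 in PTC1, PTC2 and LD, given as a description. Local centring kept 14 of the 30 calls in PTC1 in the same direction, 15 of 23 in PTC2, 16 of 29 in LD, 26 of 41 in the mean of PTC1 and PTC2 against LD, and 15 of 22 in PTC1 against PTC2. After it, 23 members were higher in PTC2 (46.94%, against 30.7% of all start sites) and 10 in PTC1 (20.41%, against 23.4%). E2f6, Cdk18 and Cdk19 kept changes of -1.27, 1.63 and -2.27 in PTC1. Whether copy number or a broader chromatin change moves with these neighbourhoods was not tested.

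**Figure D5:**
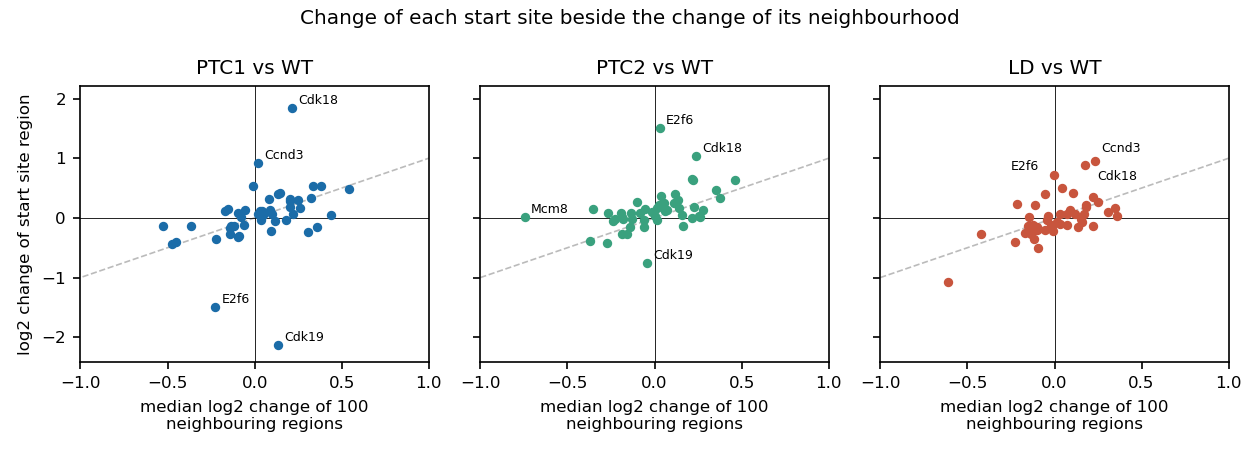
Log2 change of each of the 49 start site regions (vertical) against the median log2 change of the 100 nearest tested regions (horizontal) in PTC1, PTC2 and LD; the dashed line marks equal change and labels mark genes more than 0.65 from it. Cdk18, E2f6 and Cdk19 lie far from the line in PTC1, and most genes lie near it.

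The 18 other regions listed with the members were called in either direction in 7 cases in PTC1 (38.9%), 9 in PTC2 (50%) and 9 in LD (50%). Of all 4092 other regions with a named gene, 60%, 55.7% and 43.9% were called in those comparisons with WT. Several with larger changes, chosen after their values were seen, follow. A region 4648 bp from the Ccne1 start site had 20, 36 and 33 counts in WT, 90, 90 and 107 in PTC1, 81, 75 and 95 in PTC2 and 51, 33 and 44 in LD. Both stop lines lay above WT and LD, with log2 changes of 1.69 (adjusted p = 2.14e-07) and 1.5 (1.81e-06) against WT, while the Ccne1 start site did not pass in either (0.04 and 0.03). At Cdk14, a region 3730 bp from the start site had a mean of 302 in WT and 473.7 in LD (0.65), the direction of its start site. At Cdk6, whose start site had no call against WT, a region 4224 bp away was lower in PTC1 (-0.58) and higher in LD (0.67). At E2f2 a region 2512 bp away was lower in PTC1 (-0.60) and in LD (-0.48), where the start site was higher. The Mcm6 region 1958 bp from its start site was lower in PTC2 (-0.65) and higher in LD (0.34).

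Of 73 other cell cycle genes in 5 lists (RB and DREAM, licensing and fork, nucleotide supply, mitosis and checkpoint, CDK inhibitors), 64 had a start site region. Of these, PTC1 had 20 higher and 20 lower (31.2% each, where 33.3% and 28.5% of all start sites were called). PTC2 had 28 and 4 (43.8% and 6.25%, beside 37.4% and 16.3%), and LD had 6 and 21 (9.38% and 32.8%, beside 16.9% and 29.5%). With loess LD gave 21 and 11, and with quantile normalization 20 and 13, so the lean in LD turned. It turned over all start sites too (3677 and 2301, and 3562 and 2404). Their median log2 changes were 0.02, 0.10 and -0.06, against 0.03, 0.10 and -0.05 for all start sites. Of the 25 licensing and fork genes, 12 were higher and 1 lower in PTC2 (48% and 4%), and 1 higher and 9 lower in LD (4% and 36%), with the same shares of all start sites beside them. In LD this became 6 and 7 with loess and 5 and 7 with quantile normalization. Against WT, 2 of the 64 passed with a change of at least 1 in size. Cdkn2b, which encodes an inhibitor of CDK4 and CDK6, had 1363, 1473 and 1390 counts in WT, 406, 468 and 434 in PTC1, 929, 897 and 832 in PTC2 and 1449, 1484 and 1391 in LD. Its change was -1.69 in PTC1 (adjusted p = 2.51e-18). Pola1, a subunit of the polymerase that primes DNA synthesis, lies on chromosome X and was lower in LD (-1.32), where its neighbourhood median was -0.94.

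The 10 members with an E2F word in the promoter were set beside the 30 matched members without one. With the word, PTC1 had 4 higher and 3 lower, PTC2 had 4 and 0, and LD had 1 and 4. Without it the counts were 8 and 7, 10 and 5, and 8 and 11 in the same order. Of all start sites, 33.3% and 28.5%, 37.4% and 16.3%, and 16.9% and 29.5% were called. All these are calls as deposited, and the split was not repeated under other scalings. The matched promoters of Cdk14 and Ccnb1ip1, both without the word, lay outside the start site region. The medians were 0.12, 0.13 and -0.12 with the word and 0.06, 0.06 and -0.01 without. With the word, the changes in PTC1 lay between -0.15 and 0.42, and E2f6, Cdk18 and Ccnd3, with wider ones, were not among these genes.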

How the data were processed

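ATAC-seq was measured in 12 NIH/3T3 libraries. Per the labels' protocols, cells were permeabilised with digitonin and transposed with Tn5 for 30 min at 37 °C and sequenced with paired ends. Per the submitters' processing notes, the build was mm10 and the tools included DESeq2 1.30.1, Picard 2.25.5, STAR 2.7.10a and Trimmomatic 0.39, with roles not stated. Neither the peak caller nor a correction for the Tn5 offset is given in the sources used here. The deposited score is, by its values, a read count that the authors scaled by 1 factor per library and rounded, for regions shared by all libraries. The deposited gene symbols and distances were used, 1 gene per region, and coordinates are as the table gives them.

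All 12 libraries entered 1 limma fit (version 3.58.1, R 4.3.3) of log2(value + 1), with 1 mean for each group and a variance trend. Testing took the 81985 regions whose mean reached 5, which left out 10, with Benjamini-Hochberg adjustment over all tested. A count test had been foreseen for raw counts, and limma was used because the values are scaled. SE are those of the fit. The fit was tested on simulated data. The depth of each library limits low regions most. No 2 libraries were identical.

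The members, role groups and lists were chosen with earlier results of these data known. Values in every library are given for members called with a log2 change of at least 0.5 in size in a mutant line, or in the same direction in all 3. Ccnd1, Mcm3, Mcm5, Cdkn2b and the regions away from start sites were added after their values were seen. Replicate numbers did not pair libraries: deviations of same-numbered libraries correlated at -0.0044 to 0.0447 over 18 pairs. Promoters and gene positions are from RefSeq (GRCm38.p6). Alternatives are described in the closing section.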

Additional observations from a re-analysis of the deposited data

Results flagged for a closer look

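In all, 16 members were called in opposite directions in different mutant lines. The difference between those lines was past the test in each case (limma, adjusted over all regions). Lines called on opposite sides of WT in 1 fit must differ by more than either differs from WT. The selection thus fixed this outcome in advance, and the p-values below add no support to the opposite calls. The widest log2 differences were at E2f6, PTC1 minus PTC2 -3.00 (adjusted p = 3.82e-18), and at Cdk19, PTC1 minus LD -2.62 (2.7e-20). PTC1 minus LD was -0.62 at Bub1, 0.43 at Ccna2, -0.61 at Ccnd1, -0.47 at Ccnd2 and 0.34 at Ccne2. PTC2 minus LD was 0.46 at Cdk13, -0.63 at Cdk14, -0.33 at Cdk9, 0.39 at E2f3, 0.92 at Mcm2 and 0.59 at Mcm3. PTC1 minus PTC2 was -0.48 at Ccnb1, -0.42 at Cdk7 and -0.62 at Mcm4. The largest of the 16 adjusted p-values was 2.84e-05, at Cdk9. For Mcm2 the sign in LD turns when the level of the chromosome or of nearby regions is removed. Other signs turned too, without a call. With local centring Mcm4 turned in PTC1 (0.03), PTC2 (-0.05) and PTC1 minus PTC2 (0.08), and Cdk9 (-0.002) and Cdk7 (0.009) in LD. With chromosome centring Cdk9 turned in PTC2 (0.05) and E2f3 in PTC1 (0.04). With loess Ccna2 (0.005) and E2f3 (0.02) turned in LD.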

How the results depend on the processing

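The counts of members called moved by more than 1.5 times under these settings. For most of the scalings and centrings, the counts over all start sites stand beside those of the members in the results above. In LD, 20 were higher with loess and 6 lower with loess, 7 lower with quantile normalization, 9 without the variance trend and 11 with local centring. In PTC1, 10 were higher with local centring, and 9 were lower without the trend and 8 with chromosome centring. Lower calls over all start sites without the trend were 2982 in PTC1 and 2701 in LD, beside 3515 and 3635 with it. In PTC2, 27 were higher with the same median and 3 lower with chromosome centring. In the mean of PTC1 and PTC2 against LD, 17 were higher with loess. In PTC1 against PTC2, 4 were higher and 22 lower with the same median, and 20 and 16 higher with loess and quantile normalization. Leaving out 1 library gave PTC1 14 to 17 higher and 10 to 17 lower, PTC2 15 to 19 and 5 to 7, LD 11 to 12 and 11 to 21, the mean of the stop lines against LD 25 to 29 and 11 to 12, and PTC1 against PTC2 7 to 11 and 11 to 14. Over all start sites the ranges were 3559 to 4195 higher and 3172 to 3586 lower in PTC1. In PTC2 they were 3826 to 4670 and 1683 to 2156, and in LD 1727 to 2136 and 3032 to 3762. The mean of the stop lines against LD had 5006 to 5596 and 2295 to 2809. PTC1 against PTC2 had 2227 to 2796 and 3645 to 4153. Among the 11 members with values in every library, the called signs that turned were Ccnd3 at its highest region (-0.0230 in LD, -0.00957 in PTC1 against PTC2, 0.212 in the mean of the stop lines against LD), E2f5 in PTC1 against PTC2 with local centring (-0.117), and Mcm2 with chromosome centring in LD (0.0866) and with local centring in LD (0.144), PTC1 (-0.0497) and the stop lines against LD (-0.0816). Over all 49 members and 5 comparisons, the sign of a called change turned in 18 cases with local centring, 5 with chromosome centring, 6 with loess and 2 with quantile normalization. In 2 of these 31 cases, both with local centring, the opposite direction was called: Mcm8 in PTC1 (0.39) and Ccne1 in the mean of the stop lines against LD (-0.20). The cause of these moves was not tested. The replicate block, for numbers that do not pair libraries, gave PTC1 16 higher and 15 lower, PTC2 19 and 6, LD 12 and 18, the stop lines against LD 29 and 12, and PTC1 against PTC2 9 and 13, with no call lost. All start sites gave 4182 and 3562, 4720 and 2067, 2140 and 3709, 5640 and 2721, and 2653 and 4163 in the same order. A pseudocount of 10, no filter, a filter at a mean of 50 and fitting only the groups compared kept each of these counts within 1.5 times. Leaving out 1 library ended a call of Cdk15 in PTC1 and in PTC1 against PTC2 in 4 cases each, of Cdk15 against LD in 2, and of Orc2 in PTC1 against PTC2 in 1. It gave a call at Cdk16 in PTC1 in 4 cases (adjusted p down to 0.0261), at Ccnd3 in PTC2 in 1 and at Mcm2 in PTC1 against PTC2 in 1. Counts over the lists of other cell cycle genes under other scalings were added after seeing the data. The planned count test was not run, since a scaled and rounded value can stand for 2 read counts. Depth limits the smallest regions, such as that of Cdk15.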
